A study of Mus musculus with 20 samples.

Results

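Liver transcripts of 9 genes that carry hepatic glucose traffic were followed in mice on chow and in mice on a high-fat diet (HFD) whose protein came partly from fishmeal, from salmon filet or from beef. The genes were Slc2a2, Pklr, G6pc, Pck1, Fbp1, Gys2, Pygl, Ppp1r3b and Ppp1r3c. They were chosen by name for their role, with earlier results of these data known. They were matched by symbol, and each was found once among the 55487 gene identifiers of the count table. Liver RNA of 20 female C57BL/6J mice was sequenced at 28 weeks of age, with 1 library per mouse. Feeding began at 8 weeks of age with chow or a HFD, and in the last 10 weeks the HFD-fed mice received isocaloric HFDs with 50% of the protein from fishmeal made of salmon by-products, from salmon filet or from beef. By label, 5 mice belonged to the chow group, 5 to the fishmeal group, 6 to the salmon filet group and 4 to the beef group, and no group carries a transgene or a drug. The chow-fed mice were a reference that differed from the HFD-fed mice in the whole diet. The label of mouse 31 says salmon filet, whereas its column in the count table is headed beef, and by the headings each diet had 5 mice. Equal groups are also what the study describes. Mouse 31 was kept in the labelled group. For comparisons with salmon filet or beef, the calls are also given with it counted as beef. Group means, figures and correlations use the labelled groups unless stated otherwise.

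The liver takes up glucose after a meal, burns it or stores it as glycogen, and releases glucose between meals from glycogen and by synthesis from lactate, glycerol and amino acids. Insulin, glucagon, glucocorticoids and the circadian clock are all known to set the transcript levels of enzymes in these routes. Slc2a2 encodes GLUT2, the main glucose transporter of the hepatocyte membrane, and Pklr encodes the liver and red cell pyruvate kinase, the last step of glycolysis. Pck1, Fbp1 and G6pc encode phosphoenolpyruvate carboxykinase, fructose-1,6-bisphosphatase and the catalytic subunit of glucose-6-phosphatase, which carry gluconeogenesis past the irreversible steps of glycolysis. Gys2 is the liver glycogen synthase and Pygl the liver glycogen phosphorylase. Ppp1r3b and Ppp1r3c encode glycogen-targeting subunits of protein phosphatase 1, called GL and PTG, which bring the phosphatase to the glycogen particle and favour glycogen synthesis.

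The upstream sequences of Ppp1r3c and Slc2a2 are shown because these genes gave 2 of the 3 calls between HFD and chow described below. They come from RefSeq on GRCm38.p6, and both are written 5′ to 3′ on the strand of the gene. The stretch of Ppp1r3c lies at chr19:36736654-36736854 on the minus strand and that of Slc2a2 at chr3:28697653-28697902 on the plus strand. Bases inside the GENCODE gene were left out. The 201 bases printed for Ppp1r3c therefore stop short of its RefSeq start at position 36736604. Capitals mark CACGTG, the E-box bound by CLOCK and BMAL1 among other factors, and AGGTCA, the core element read by NR1D1, RORs and other nuclear receptors.
Ppp1r3c: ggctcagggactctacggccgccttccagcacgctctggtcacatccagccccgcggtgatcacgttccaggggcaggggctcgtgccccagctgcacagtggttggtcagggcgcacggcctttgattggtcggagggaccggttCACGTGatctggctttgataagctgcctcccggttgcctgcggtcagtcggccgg
Slc2a2: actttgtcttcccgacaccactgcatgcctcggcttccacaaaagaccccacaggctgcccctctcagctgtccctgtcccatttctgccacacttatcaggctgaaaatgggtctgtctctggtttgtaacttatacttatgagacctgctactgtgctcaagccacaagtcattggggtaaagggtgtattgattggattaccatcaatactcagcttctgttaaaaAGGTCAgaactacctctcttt

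Windows from 250 bases before to 50 bases after the RefSeq start were searched on both strands for 7 members, which had 8 windows because Pklr has 2 starts. CACGTG began 104 bases before the start of Ppp1r3c and was in 1 of the 8 windows, against 7.15% of 32851 windows of the same length over all genes. AGGTCA was in 4 of the 8 windows, those of Slc2a2, G6pc, Pygl and the upstream start of Pklr, against 16.3% of all windows. The window at the downstream start of Pklr held no AGGTCA, and which start was used in these livers was not tested. TGACG, the shorter form of the cyclic AMP response element, was in the windows of Pck1 and Pygl, against 20.8% of all windows. The forkhead element TGTTTGC was in the window of G6pc and in 5.07% of all windows. The full cyclic AMP element TGACGTCA, the forkhead element TGTTTAC, the D-box TTATGNAA and the glucocorticoid element TGTTCT were in none of the 8 windows and in 1.79%, 3.65%, 3.38% and 19% of all windows. TGACG would also be counted within TGACGTCA. No promoter window was used for Gys2 and Ppp1r3b.

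The genes lie on different chromosomes apart from Slc2a2 and Pklr. On GRCm38, with GENCODE M21 genes, Slc2a2 (ENSMUSG00000027690) spans chr3:28697903-28731359 and Pklr (ENSMUSG00000041237) chr3:89136142-89146784. Pck1 (ENSMUSG00000027513) spans chr2:173153048-173159273, Fbp1 (ENSMUSG00000069805) chr13:62864753-62888282 and G6pc (ENSMUSG00000078650) chr11:101367561-101377903. Gys2 (ENSMUSG00000030244) spans chr6:142422613-142473109 and Pygl (ENSMUSG00000021069) chr12:70190811-70231488. Ppp1r3b (ENSMUSG00000046794) spans chr8:35375739-35388139 and Ppp1r3c (ENSMUSG00000067279) chr19:36731731-36736653. Pklr, Slc2a2, Pygl and Ppp1r3b overlap a gene on the opposite strand, and whether reads were counted by strand is not given in the sources used here. Those overlapping genes held 3 to 873 counts over all libraries, whereas the 4 members held 353531 to 530142. Pygl also matched Gm47451 at 94.8% identity over 387 bases, and that gene held 1082 counts.

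Libraries held 42526234 to 70266136 counts on genes. Beef mouse 35 stood apart, with 84.3% of its counts on protein coding genes against 93.2% to 95.6% in the other libraries, and 12.7% on genes annotated as rRNA against 2.22% to 4.88%. Without it, the log2 fold changes between beef and chow were −1.34 for Ppp1r3c, 0.83 for Gys2 and 0.63 for Slc2a2 (adjusted p of 0.016, 0.018 and 0.0184 by edgeR). Marker genes of hepatocytes summed to 99600 to 125000 CPM (counts scaled to a fixed library total) in chow-fed mice and 90000 to 119000 CPM in HFD-fed mice, and 0 of 7 tested passed between them. Among markers of other cells, 6 of 9 T and B cell genes were lower in HFD-fed mice, with sums of 2.9 to 7.16 CPM against 7 to 14.3 CPM in chow-fed mice. In addition, 2 of 8 sinusoidal endothelial markers, 2 of 8 pericentral hepatocyte markers (Cyp1a2 and Axin2) and 1 of 5 cholangiocyte markers were lower. The summed sinusoidal endothelial markers were 231 to 335 CPM under HFD and 294 to 340 CPM on chow, the pericentral ones 8070 to 13900 and 6530 to 10000 CPM, and the cholangiocyte ones 31.8 to 90.7 and 41.8 to 79 CPM. None of the Kupffer cell, stellate cell and periportal markers passed. Of all protein coding genes tested, 4.74% were higher and 5.59% lower. Of 6 stress genes tested 1 was lower, and the 1 exocrine pancreas marker tested, Cela1, was higher, with sums of that list at 10.7 to 25.9 CPM under HFD and 8.57 to 10.8 CPM on chow. The 5 adipocyte markers and the 5 skeletal muscle markers each summed to at most 1.48 CPM in any library, with Lep, Ckm and Myh4 at 0 counts in all. The part of these cell types in the results below was not tested. Fewer cells of a type and less RNA per cell cannot be told apart in whole liver.

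All 9 genes were strongly expressed, in TPM, the unit that also divides by gene length, with means over all libraries above those of 96.2% or more of protein coding genes. Fbp1 was highest at 905 ± 160 TPM (SD, n = 20), followed by Pck1 at 636 ± 201 TPM. G6pc at 252 ± 105 TPM and Pklr at 251 ± 70.6 TPM came next, and then Ppp1r3b at 192 ± 45.8, Pygl at 170 ± 19.7 and Slc2a2 at 158 ± 32.6 TPM. Gys2 at 118 ± 32.3 TPM and Ppp1r3c at 106 ± 51.8 TPM were lowest. Fbp1 was above Pck1 in 18 of 20 libraries, Pck1 above G6pc in 18, Pklr above Ppp1r3b in 16, Pygl above Slc2a2 in 14 and Slc2a2 above Gys2 in all 20. The order of G6pc and Pklr, which held in 10 of 20 libraries, of Ppp1r3b and Pygl, in 11, and of Gys2 and Ppp1r3c, in 11, was thus within their spread. The order of the last pair differed between the chow-fed mice and those labelled beef, and was mixed under the other HFDs. Gys2 was at 0.411 to 0.757 times the TPM of Ppp1r3c in the chow-fed mice and at 1.68 to 3.94 times in the beef-fed mice, with 0.506 to 2.88 under fishmeal and 0.784 to 2.57 under salmon filet. In mouse 31 the ratio was 0.92, so with that mouse counted as beef the beef-fed mice spanned 0.92 to 3.94 and the order differed in 4 of 5 of them.

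**Figure D1:**
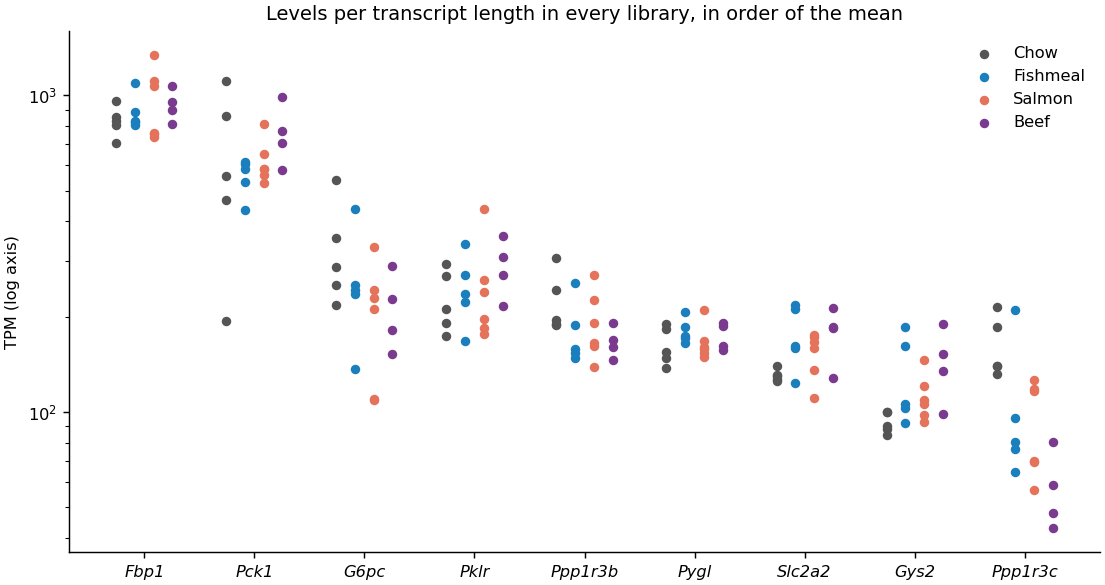
TPM of each gene in the 20 libraries on a log axis, in order of the mean, with 1 point per library coloured by diet. Fbp1 and Pck1 lie at the top, with means of 905 and 636 TPM, and the beef-fed mice have the lowest points of Ppp1r3c, down to 42.9 TPM in mouse 35. That library had 12.7% of its counts on rRNA genes, and in CPM mice 35 and 40 were both at 54.4.

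To ask how the HFD-fed liver differed from the chow-fed liver, the 15 HFD-fed mice were compared with the 5 chow-fed mice. Glucose transport and glycogen synthase transcripts were higher under HFD, and the glycogen-targeting subunit PTG was lower. Slc2a2 was 31.8% and Gys2 40.9% above the chow level, and Ppp1r3c was at 0.553 times the chow level. The other 6 genes did not pass the test. With the clock score described below as a covariate none of these calls remained, and limma on log2(TPM + 1) called Ppp1r3c alone. By edgeR with Benjamini-Hochberg adjustment over all genes, 3 of the 9 genes passed at an adjusted p under 0.05, of 10.3% of 13702 protein coding genes tested. Of these, 2 were higher, against 4.74% of all genes, and 1 was lower, against 5.59%. The median log2 fold change of the 9 genes was 0.15, and that of all genes was 0.01. For 0 of the 9 genes were the groups free of overlap, as they were for 1.74% of all genes.

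For a single gene between libraries, levels are given as CPM scaled by trimmed mean of M-values (TMM) factors. Slc2a2 was at 294, 274, 292, 300 and 291 CPM in the chow-fed mice. Under HFD it ranged from 268 through a median of 379 to 511 CPM. The chow-fed mice had a coefficient of variation of 3.4%, whereas that of the HFD-fed mice was 17.6%, and 13 of 15 were above the chow mean. The log2 fold change was 0.40 ± 0.118 (SE, adjusted p = 0.034 by edgeR). The HFD-fed mice below the chow mean were both fed salmon filet, mouse 22 at 284 CPM and mouse 23 at 268 CPM.

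Pklr, the glycolytic member, was at 226 to 354 CPM in chow-fed mice and 200 to 571 CPM in HFD-fed mice. Its log2 fold change was 0.25 ± 0.192 (SE, adjusted p = 0.45 by edgeR, 95% interval −0.14 to 0.65). The groups overlapped in part, with 10 of 15 HFD-fed mice above the chow mean. The highest value was that of mouse 25, fed salmon filet.

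Of the gluconeogenic genes, none passed. G6pc was at 211, 311, 526, 258 and 235 CPM in the chow-fed mice, and had a range of 107 to 430 CPM with a median of 214 under HFD. In 13 of 15 mice on HFD it lay under the mean of the chow group, and its log2 fold change was −0.50 ± 0.251 (SE, adjusted p = 0.226 by edgeR). Pck1 was at 267, 582, 1540, 711 and 1140 CPM in the chow-fed mice, a 5.79-fold spread, and at 606 to 1410 CPM under HFD, a 2.32-fold spread. With this spread in the chow group its log2 fold change of 0.05 had a 95% interval of −0.47 to 0.57 (adjusted p = 0.929 by edgeR). Fbp1 was at 486 to 591 CPM in chow-fed and 473 to 918 CPM in HFD-fed mice, and differed by 0.22 ± 0.142 on the log2 scale (SE, edgeR adjusted p = 0.35). Thus the chow-fed mice differed among themselves far more in Pck1, with a coefficient of variation of 58.8%, than in Fbp1, with 8.52%.

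Of the glycogen genes, Gys2 was at 95, 81.5, 96.7, 98.8 and 103 CPM in the chow-fed mice. Under HFD it ranged from 89.6 through a median of 121 to 209 CPM, and 14 of 15 mice were above the chow mean. The log2 fold change was 0.49 ± 0.158 (SE, adjusted p = 0.0485 by edgeR). Only mouse 22 (89.6 CPM) and mouse 13 (101 CPM) lay below the highest chow value. Pygl, which breaks glycogen down, was at 385 to 488 CPM on chow and 397 to 622 CPM under HFD, and differed by 0.15 ± 0.102 on the log2 scale (SE, edgeR adjusted p = 0.395).

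Ppp1r3c was at 237, 183, 154, 134 and 148 CPM in the chow-fed mice. Under fishmeal it was at 102, 96.8, 84, 231 and 66.5 CPM, under salmon filet at 117, 79.8, 62.3, 130, 71.5 and 122 CPM, and under beef at 85.9, 54.4, 62.8 and 54.4 CPM. All HFD-fed mice except mouse 16, fed fishmeal, were below the lowest chow value of 134 CPM. The log2 fold change was −0.85 ± 0.244 (SE, adjusted p = 0.0282 by edgeR). Ppp1r3b, the related subunit GL, was at 453 to 770 CPM on chow and 353 to 648 CPM under HFD. It lay under the mean of the chow group in 13 of 15 mice, and its log2 fold change of −0.27 ± 0.141 (SE) did not pass (adjusted p = 0.254 by edgeR).

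**Figure D2:**
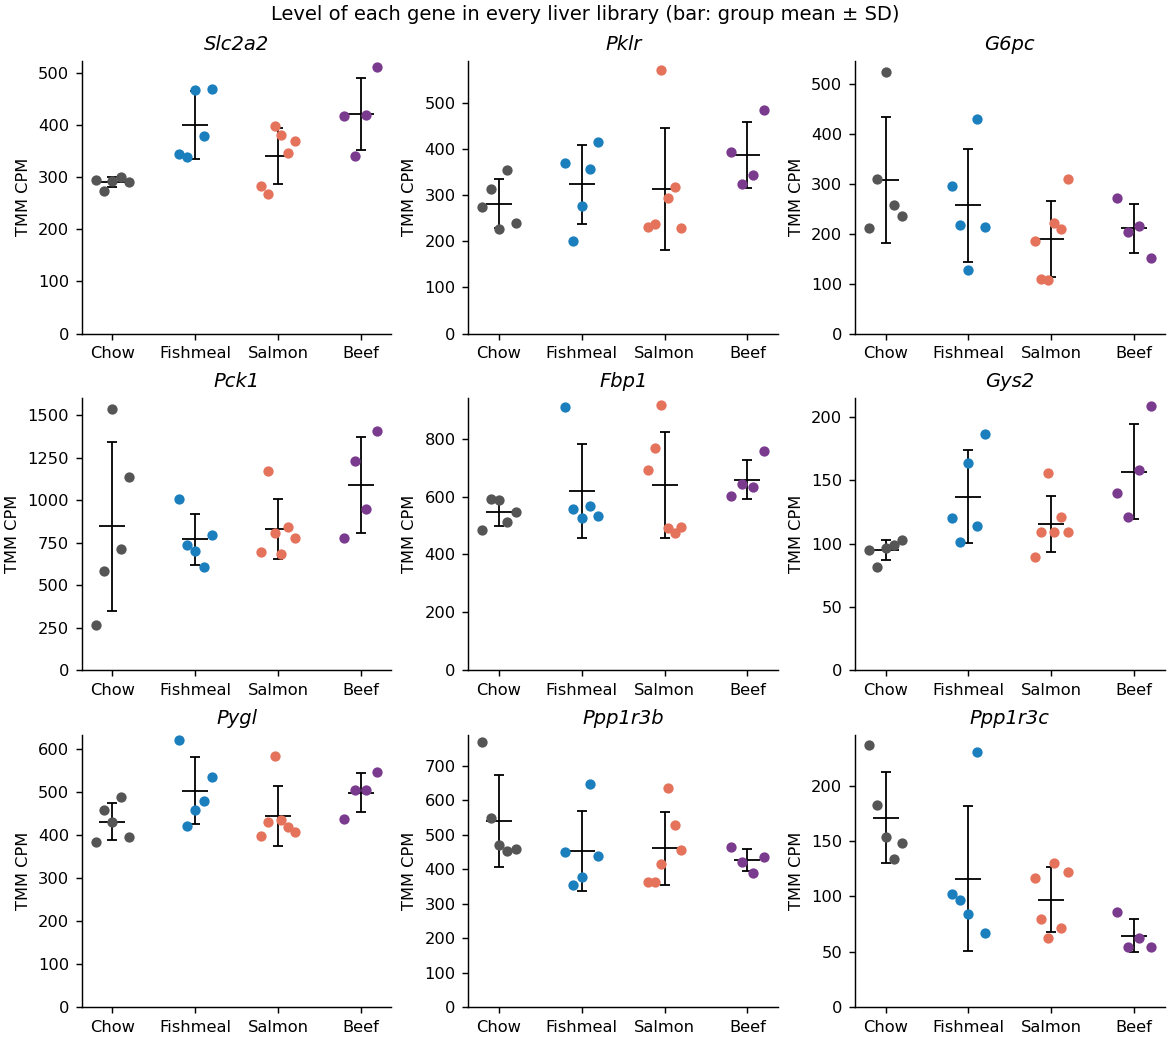
CPM of each gene in every library, by diet, with 1 point per mouse and bars for the group mean ± SD. Slc2a2 and Gys2 of the chow-fed mice are tightly grouped below most HFD-fed mice, and Ppp1r3c is lowest in the beef-fed mice, with mouse 16 of the fishmeal group at 231 CPM.

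These calls stood close to the threshold. With limma, which called 8.48% of all genes, Slc2a2 was at 0.32 (adjusted p = 0.133) and Gys2 at 0.40 (0.119), and without the filter on low counts, where 6.4% of all genes were called, Gys2 had an adjusted p of 0.0619 by edgeR. With the clock score as covariate, which left 1.61% of all genes called, Gys2 turned to −0.05. Leaving out chow mouse 1 or 2 left 0 of the 3 calls, with adjusted p for Ppp1r3c of 0.127 and 0.0694, and leaving out chow mouse 5, 7 or 10 left Ppp1r3c alone. Slc2a2 had adjusted p of 0.077, 0.0912, 0.0611, 0.0697 and 0.0639 without chow mouse 1, 2, 5, 7 and 10, and Gys2 had 0.108, 0.136, 0.0774, 0.096 and 0.0661. Gys2 was also lost, at adjusted p of 0.0534 to 0.0667, without fishmeal mouse 14 or 20, salmon mouse 25 or 27, or beef mouse 32, 39 or 40. Over all mice left out, the log2 fold change stayed at 0.36 to 0.43 for Slc2a2, 0.44 to 0.53 for Gys2 and −1.01 to −0.71 for Ppp1r3c.

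The comparisons of each HFD with chow share the same chow-fed mice. For Ppp1r3c, Gys2 and Slc2a2 the difference from chow was larger under beef than under the other HFDs, although none of the 9 genes passed between the HFDs, as given below. Ppp1r3c fell to 64.4 ± 14.9 CPM (SD, n = 4) from 171 ± 40.9 CPM on chow (n = 5), Gys2 rose from 95 ± 8.1 to 157 ± 37.6 CPM and Slc2a2 from 290 ± 9.85 to 422 ± 69.3 CPM. The log2 fold changes were −1.42 (adjusted p = 0.00522), 0.72 (0.0319) and 0.53 (0.0429) by edgeR. Thus 3 of 9 genes passed, against 2.53% of all genes. The groups did not overlap for these 3 and for Fbp1, 4 of 9 genes against 8.39% of all genes. With mouse 31 counted as beef they did not overlap for 3 of 9 genes, against 6.35% of all genes, since Fbp1 was at 494 CPM in that mouse. Fbp1 was at 602 to 756 CPM under beef and at most 591 CPM on chow, and did not pass (log2 fold change 0.27, adjusted p = 0.252). With mouse 31 so counted, Ppp1r3c was at 75.8 ± 28.6 CPM under beef (SD, n = 5) and 2 of 9 passed, against 2.97% of all genes. Ppp1r3c and Slc2a2 had adjusted p of 0.0217 and 0.0354 by edgeR, and Gys2 was lost at a log2 fold change of 0.63 (adjusted p = 0.0537 by edgeR). Without any 1 of the 5 chow mice, or without beef mouse 39 or 40, Ppp1r3c alone passed, at adjusted p of 0.00205 to 0.0305 over all mice left out. Limma called Ppp1r3c alone as well, with 1.79% of all genes called. In the fits without a chow mouse or without beef mouse 39 or 40, Slc2a2 had adjusted p of 0.0672 to 0.127 and Gys2 of 0.0506 to 0.0872 by edgeR. Over all mice left out the lowest were 0.0184 for Slc2a2 and 0.018 for Gys2, and each passed in 2 of 9 fits.

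Under salmon filet Ppp1r3c was at 97 ± 29.1 CPM (SD, n = 6), did not overlap with chow and was the 1 gene of 9 that passed, against 4.36% of all genes (log2 fold change −0.81, adjusted p = 0.0454 by edgeR). It was also the 1 gene of 9 without overlap, as were 5.05% of all genes. The call was lost in the edgeR fit on all 4 groups (−0.82, adjusted p = 0.0924), which called 3.44% of all genes, and with limma (−0.84, adjusted p = 0.0678), which called 2.77%. With mouse 31 counted as beef it passed at a log2 fold change of −0.88 (adjusted p = 0.0419), against 4.57% of all genes. Leaving out chow mouse 1, 2, 5, 7 or 10, or salmon mouse 22, 23, 25 or 27, ended the call, at adjusted p of 0.0979, 0.0897, 0.0534, 0.0624, 0.0529, 0.0584, 0.0747, 0.0795 and 0.0823 by edgeR. G6pc under salmon filet was at 107 to 310 CPM. It differed from chow by −0.68 on the log2 scale (edgeR adjusted p = 0.191), or by −0.88 (adjusted p = 0.0881) with mouse 31 counted as beef.

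Under fishmeal 0 of 9 genes passed by edgeR, against 3.5% of all genes, and 2 had an unadjusted p under 0.05. DESeq2 called 2, Slc2a2 (adjusted p = 0.00403) and Gys2 (adjusted p = 0.035), against 7.48% of all genes. The edgeR fit on all 4 groups called Slc2a2 (adjusted p = 0.0417), against 5% of all genes. Slc2a2 was at 344, 339, 468, 379 and 470 CPM, all above the chow-fed mice. It differed by 0.46 on the log2 scale (edgeR adjusted p = 0.0567). It was the 1 gene of 9 without overlap, as were 6.32% of all genes, and passed at 0.0262 without fishmeal mouse 12. Ppp1r3c had a log2 fold change of −0.57 (adjusted p = 0.358 by edgeR) with mouse 16 and of −0.97 (adjusted p = 0.0157) without it.

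**Figure D3:**
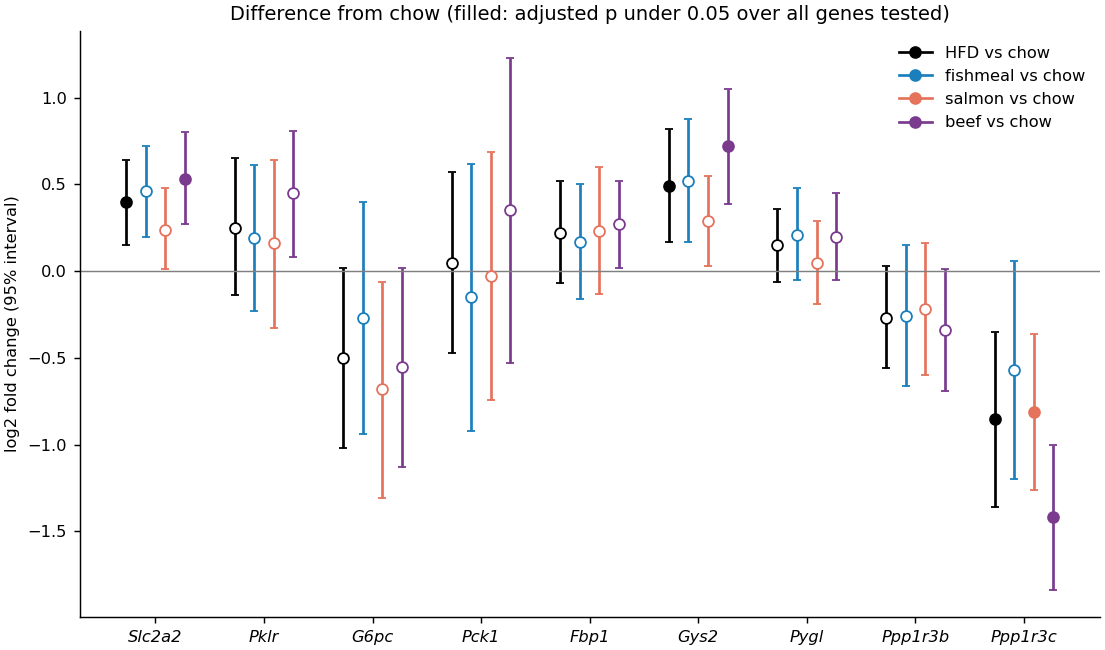
Log2 fold change of each gene against chow with its 95% interval, for all HFD-fed mice and for each HFD, with filled points where the adjusted p was under 0.05. Filled points are those of Slc2a2, Gys2 and Ppp1r3c under all HFDs and under beef, and of Ppp1r3c under salmon filet at −0.81. Groups are those of the labels. With mouse 31 counted as beef, Gys2 did not pass under beef (adjusted p = 0.0537 by edgeR).

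The protein sources were compared with each other within the HFD. None of the 9 genes passed by edgeR in any pair. All genes gave 0.163% called between fishmeal and salmon filet, 0.00744% between fishmeal and beef, and 0% between salmon filet and beef, and 0 of the 9 genes were called in each pair also by DESeq2 and with mouse 31 counted as beef. Between fishmeal and salmon filet 0 of the 9 genes had an unadjusted p under 0.05. Between fishmeal and beef 2 did, Ppp1r3c, with a log2 difference of 0.85 (95% interval 0.14 to 1.55), and Pck1, with −0.50 (−0.93 to −0.08). Between salmon filet and beef 2 did, Ppp1r3c, with 0.61 (0.12 to 1.09), and Gys2, with −0.44 (−0.80 to −0.07). The adjusted p was 1 for each of these 4 values by edgeR. With mouse 31 counted as beef, 1 of these 4 values kept an unadjusted p under 0.05, that of Pck1 at −0.42 ± 0.191 (SE). The log2 difference of Ppp1r3c was then 0.61 ± 0.327 between fishmeal and beef and 0.29 ± 0.26 between salmon filet and beef, and that of Gys2 was −0.33 ± 0.183 between salmon filet and beef. Pck1 was at 772 ± 152 CPM under fishmeal (SD, n = 5) and 1090 ± 280 CPM under beef (n = 4). All fishmeal-fed mice were below the beef mean, although the ranges of 606 to 1010 and 779 to 1410 CPM overlapped.

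The other genes of the same routes were read from lists that leave out the 9 genes. Beside the counts of these lists, 4.74% of all protein coding genes tested were higher and 5.59% lower between HFD and chow. The alternatives, among them the clock score as covariate and each mouse left out, were read for the 9 genes only. How far the calls of the list genes hold under them was not tested. Of the 18 glycolysis genes reported here, 1 passed between HFD and chow, and the median log2 fold change was 0.03. Pfkfb3, an enzyme that makes the phosphofructokinase activator fructose-2,6-bisphosphate, fell from 10.3 ± 2.46 to 5.75 ± 1.18 CPM (SD, n = 5 and 15), a log2 fold change of −0.84 (edgeR adjusted p = 0.000435), and was below the chow mean in 15 of 15 mice.

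Of 13 gluconeogenesis genes, 3 were higher and 0 lower by edgeR, with a median of 0.23. These were pyruvate carboxylase, Pcx, which differed by 0.66 on the log2 scale (edgeR adjusted p = 0.0291), the mitochondrial dicarboxylate carrier Slc25a10, with 0.64 (0.0203), and the glucose-6-phosphate transporter Slc37a4, with 0.56 (0.0428). Slc37a4 feeds the G6pc enzyme. It rose from 54.6 ± 4.84 to 80.5 ± 23 CPM, whereas G6pc had 308 ± 127 CPM on chow and 218 ± 84.7 CPM under HFD.

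Of 18 glycogen genes tested, 3 were higher and 0 lower by edgeR, with a median of 0.13. Epm2a, which encodes the glycogen phosphatase laforin, rose from 6.66 ± 0.969 to 10 ± 1.11 CPM with no overlap (log2 fold change 0.59, adjusted p = 0.000383). Ugp2, which makes the UDP-glucose that glycogen synthase uses, rose by 0.50 on the log2 scale (adjusted p = 0.0367 by edgeR), and Phka2, the liver alpha subunit of phosphorylase kinase, by 0.42 (0.00124). Both Ugp2 and Gys2, successive steps into glycogen, were thus above their chow mean in 14 of 15 HFD-fed mice. In the pentose phosphate list 0 of 8 genes were higher and 1 was lower by edgeR, G6pdx, the entry enzyme, at 11.1 ± 6.38 CPM on chow and 5.55 ± 1.57 CPM under HFD (edgeR adjusted p = 0.0139).

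Of 25 genes that encode hormone receptors, signalling proteins and transcription factors acting on these routes, 6 were higher and 3 lower by edgeR, with a median of 0.19. Srebf1, which encodes an insulin-induced activator of lipogenic genes, rose from 116 ± 16.6 to 312 ± 76.8 CPM with no overlap (log2 fold change 1.42, adjusted p = 2.22e-05). Ppara and Klf15 had log2 fold changes of 0.85 (adjusted p = 0.0288) and 0.65 (0.029). Pdk4, which shuts pyruvate dehydrogenase in fasting, fell from 46.1 ± 3.41 to 18.8 ± 11 CPM with no overlap (log2 fold change −1.29, adjusted p = 0.0119). Sik1, a kinase that restrains CREB coactivators, had −0.78 (0.0279), and Irs1, an insulin receptor substrate, had −0.47 (0.0247). Of 8 fasting genes, Pdk4 was the 1 that passed, lower under HFD.

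**Figure D4:**
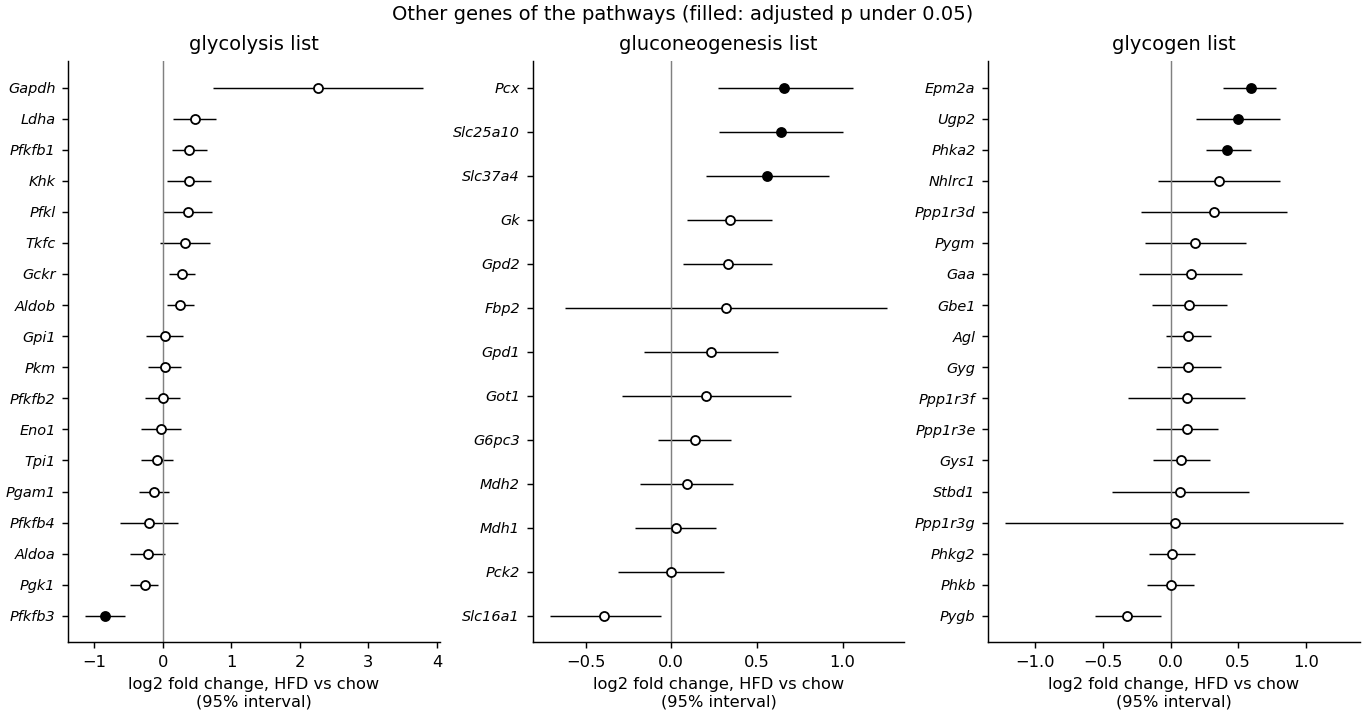
Log2 fold change between HFD and chow, with 95% interval, for the other genes of glycolysis, gluconeogenesis and glycogen metabolism, filled where the adjusted p was under 0.05. Pfkfb3 stands at −0.84 as the 1 filled gene of the first panel, and the filled genes of the other panels are all above 0.

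Clock transcripts differed between the diets, and the clock score of each library, the first principal component of log2 CPM over 12 clock genes, is therefore given beside these results. It carried 89.6% of the variance of those genes, was set positive where Dbp is high, and contains none of the 9 genes. The score was −6.31 to −2.24 in chow-fed mice, −1.53 to 6.03 under fishmeal, −4.58 to 6.22 under salmon filet and 0.27 to 7.55 under beef. With mouse 31 counted as beef, it was −2.34 to 6.22 under salmon filet and −4.58 to 7.55 under beef. Only 2 of 15 HFD-fed mice, 22 and 31, had a score below the highest chow value, so over most of their range diet and score cannot be told apart. Between HFD and chow, 7 of 12 clock genes were higher and 2 lower by edgeR, against 4.74% and 5.59% of all genes. Their median log2 fold change was 1.4. With the score as a covariate, 0 of the 9 genes and 220 protein coding genes passed between HFD and chow. Log2 fold changes were then −0.11 for Ppp1r3c, 0.15 for Slc2a2 and −0.05 for Gys2, with adjusted p of 0.929, 0.752 and 0.94. The time of day of tissue collection is not given in the sources used here.

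The genes were also set against the score within the 15 HFD-fed mice alone, although the score itself had been computed over all 20 libraries, chow-fed mice included. In a fit with the HFD group as a term, which was added after the data had been seen, 2 of the 9 genes followed the score, of 0.813% of 13651 protein coding genes, which include the clock genes themselves. G6pc was lower at a higher score, with a log2 slope of −0.129 ± 0.0254 per unit of score (SE, adjusted p = 0.0238 by edgeR). Gys2 was higher, with a slope of 0.074 ± 0.0152 (adjusted p = 0.0298). Ppp1r3c had a slope of −0.117 ± 0.0265 and did not pass (adjusted p = 0.0558), but passed at −0.091 (0.0161) without mouse 16, at −0.121 (0.041) without mouse 12, at −0.127 (0.0264) without mouse 13 and at −0.120 (0.0139) with mouse 31 counted as beef. Slopes of the other genes were 0.076 for Pklr (adjusted p = 0.226), 0.031 for Slc2a2 (0.543), 0.040 for Pck1 (0.54), 0.036 for Fbp1 (0.6), 0.034 for Pygl (0.394) and −0.024 for Ppp1r3b (0.715).

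Mouse 40, fed beef, had the highest score at 7.55, with 152 CPM of G6pc, 209 CPM of Gys2 and 54.4 CPM of Ppp1r3c. Mouse 31 had the lowest HFD score at −4.58, with 310, 109 and 122 CPM of these genes. Mouse 20, fed fishmeal, had a score of 6.03 and 187 CPM of Gys2, and mouse 13 of the same group a score of −1.53 and 101 CPM. G6pc was nearly the same in this pair, at 214 CPM in mouse 20 and 217 CPM in mouse 13. Mouse 25, fed salmon filet, had a score of 6.22, with 107 CPM of G6pc, 156 CPM of Gys2 and 62.3 CPM of Ppp1r3c. Mice with high Gys2 and low Ppp1r3c were thus present in every HFD group. The call of G6pc was lost without mouse 25 (adjusted p = 0.0873), 31 (0.104), 32 (0.0509) or 40 (0.0671), and without the group term, where its slope was −0.093 (0.169). The call of Gys2 was lost without mouse 13 (0.0597), 14 (0.0601), 16 (0.0667), 20 (0.146), 22 (0.0647), 25 (0.133), 26 (0.0538), 27 (0.0549), 32 (0.0511) or 40 (0.121). Over all mice left out the slopes stayed at −0.151 to −0.115 for G6pc and 0.067 to 0.087 for Gys2.

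**Figure D5:**
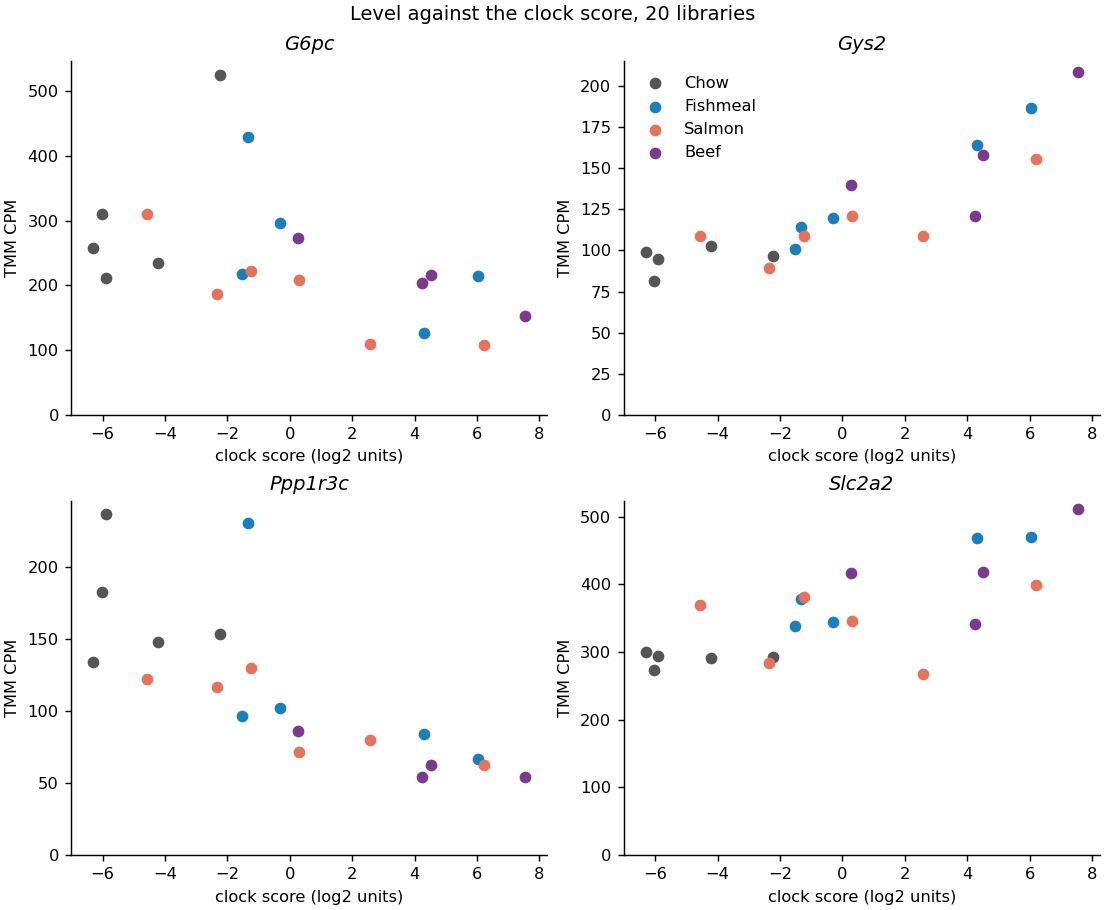
CPM of G6pc, Gys2, Ppp1r3c and Slc2a2 against the clock score in the 20 libraries, with 1 point per mouse coloured by diet. Gys2 is highest (209 CPM) in mouse 40 at a score of 7.55. Ppp1r3c is lowest (54.4 CPM) in mice 35 and 40, at scores of 4.25 and 7.55. The chow-fed mice lie at the left from −6.31 to −2.24.

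The genes were also set against each other over the 20 libraries, on log2 CPM after the mean of each diet group had been taken off. These correlations describe libraries that share their depth and scaling, and no test was made of them. Slc2a2 and Gys2 were the pair most alike, with a Pearson correlation of 0.83 (Spearman 0.84). Pklr went with Pygl at 0.79 (0.67) and with Gys2 at 0.61 (0.51), and Fbp1 with Pygl at 0.66 (0.48). The phosphatase subunits Ppp1r3b and Ppp1r3c went together at 0.62 (0.46), and Ppp1r3c went with G6pc at 0.57 (0.56). Ppp1r3c ran opposite to Gys2 at −0.56 (−0.60), and Pck1 ran opposite to Ppp1r3b at −0.56 (−0.45) and to Ppp1r3c at −0.50 (−0.65). The gluconeogenic genes were little alike, with 0.09 (−0.19) between G6pc and Pck1, 0.37 (0.43) between Pck1 and Fbp1 and −0.26 (−0.19) between G6pc and Fbp1.

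Among 11556 other protein coding genes with a mean of at least 1 CPM, the pattern most like each gene was sought by the same measure, again with no test. For Pck1 these were Bsdc1 (Pearson correlation 0.95) and Gss (0.89), and for Fbp1 Asl (0.95) and Gnmt (0.90). For G6pc they were Slc25a25 and Kctd7 (0.79 each), for Pklr Pdk1 (0.90) and Galm (0.87), and for Slc2a2 Ddo (0.89) and Slc25a32 (0.86). For Gys2 they were Ttc23 (0.89) and Wee1 (0.88), and for Pygl Khk (0.89) and Tmem97 (0.85). For Ppp1r3b they were Tmem41b (0.84) and Klf3 (0.83), and for Ppp1r3c Chka (0.90) and Slc18b1 (0.89).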

How the data were processed

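Liver RNA of 20 mice was sequenced after a strand-specific mRNA preparation. The authors trimmed and mapped the reads and counted them per gene. Per the labels, the tools were HISAT2 1.2.1 and featureCounts 1.4.6-p1. The strand setting and the handling of reads that fit several genes are not given in the sources used here, and the labels print GRCh38 for these mouse libraries. The deposited counts are raw, and a second deposited table holds TPM, which the authors scaled by gene length and library size. Of 55487 identifiers, 55141 were found in GENCODE M21, whose GRCm38 positions are given. No pair of libraries of a group agreed within sampling noise.

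Groups follow the sample labels, and separate animals are the replicates. Comparisons used edgeR 4.0 in R 4.3 on the compared groups, with TMM scaling. Genes were kept by filterByExpr (min.count 10) and tested with the two-sided quasi-likelihood F-test. P-values were adjusted by Benjamini-Hochberg over every gene kept, 0.05 was the threshold for a call, and all 9 genes were kept in each comparison. CPM values use TMM factors over 20 libraries, and log2 CPM a prior count of 2. Library totals limit precision by counting error only. Copies were sought with blastn of BLAST+ 2.17, at 90% identity over 100 bases. The fits were checked on simulated counts in which 200 genes differed by known folds. The members and the lists were chosen with earlier results of these data known. A gene of the glycolysis list is not reported here and is left out of that list's counts. Named are all members in every comparison, from each pathway list up to 3 genes called in either direction with the largest fold change between HFD and chow, and for each member the 2 genes most like it. Alternatives were DESeq2 1.42, DESeq2 size factors, no filter, all 4 groups in the fit, limma 3.58 on log2(TPM + 1) for genes averaging 0.5 TPM or more, mouse 31 as beef, the clock score as covariate, and each mouse left out. The slope on the clock score and its alternatives were chosen after seeing the data.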

Additional observations from a re-analysis of the deposited data

Results flagged for a closer look

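Among 36 sets of 1 gene in 1 diet group, 5 held a mouse whose gap to its nearest neighbour took more of the group's range than Dixon's 95% critical value, and chance alone gives about 1 in 20. Mouse 25, fed salmon filet, stood apart for Pklr at 571 CPM (gap over range 0.741) and for Pygl at 585 CPM (0.793). Mouse 23, fed salmon filet, was high for Pck1 at 1170 CPM (0.668). These groups were those of the labels, with mouse 31 under salmon filet, and the check was not repeated with it counted as beef. Mouse 12, fed fishmeal, was high for Fbp1 at 909 CPM (0.889). Mouse 16, fed fishmeal, was high for Ppp1r3c at 231 CPM (0.787), and without it the difference between fishmeal and chow passed the test.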

How the results depend on the processing

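Directions of the called genes were kept under the alternatives run, except that Gys2 turned to −0.05 with the clock score as covariate. In that fit Pklr, Pck1 and Pygl also turned, to −0.23, −0.42 and −0.06, and 220 genes and 0 of the 9 were called between HFD and chow, against 1415 and 3. DESeq2 called 1005 protein coding genes and 2 of the 9 for fishmeal against chow (471 and 0 by edgeR), 1253 (588) for salmon filet, 927 (341) for beef, 65 (22) for fishmeal against salmon filet, 21 (1) for fishmeal against beef and 1 (0) for salmon filet against beef. With limma on log2(TPM + 1), 1 of the 9 was called for HFD and for beef and 0 for salmon filet, of 293, 331 and 213 genes for fishmeal, salmon filet and beef against chow, and 0 genes for fishmeal against beef. Under limma, Pck1 was at 0.01 for fishmeal and 0.17 for salmon filet against chow, and Fbp1 at 0.01 for salmon filet against beef. In the fit on all 4 groups, 1 of the 9 was called for fishmeal, of 5% of all genes, 0 for salmon filet, of 3.44%, 641 genes for beef against chow and 4 for fishmeal against beef. Without the filter 8 genes were called for fishmeal against beef. With mouse 31 as beef, 4 were called there, Pklr stood at −0.04 for fishmeal against salmon filet and Fbp1 at 0.10 for salmon filet against beef. For the clock slope, 195 genes were called without the group term and 172 with mouse 31 as beef, against 111. The cause was not tested for any of these.

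With 1 mouse left out, 816 to 1619 genes and 0 to 3 of the 9 were called for HFD against chow, 239 to 569 and 0 to 1 for fishmeal, 239 to 615 and 0 to 1 for salmon filet, and 82 to 551 and 1 to 3 for beef. The clock slope gave 69 to 141 genes and 0 to 3 of the 9, fishmeal against salmon filet 16 to 35 genes and fishmeal against beef 0 to 3. The log2 fold changes of genes that were not called, and turned in some of these fits, were −0.18 to 0.38 for Pck1 under HFD, −0.37 to 0.19 for Pck1 and −0.53 to 0.02 for G6pc under fishmeal, and −0.25 to 0.30 for Pck1, −0.10 to 0.25 for Pklr and −0.04 to 0.10 for Pygl under salmon filet, all against chow. For fishmeal against salmon filet they were −0.23 to 0.08 for Fbp1, −0.23 to 0.01 for Pck1, −0.08 to 0.30 for Pklr, −0.19 to 0.08 for Ppp1r3b and −0.15 to 0.39 for Ppp1r3c. For fishmeal against beef they were −0.08 to 0.16 for Ppp1r3b, −0.07 to 0.07 for Pygl and −0.16 to 0.02 for Slc2a2, and for salmon filet against beef −0.18 to 0.04 for Fbp1 and −0.33 to 0.00 for G6pc. Each of the 9 genes held 2475 or more counts in every library, and the part of depth and of group size in the width of the intervals was not tested.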

Other observations

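Gapdh, on the glycolysis list, was singled out after its values were seen. It was at 7.01 to 15.4 CPM in the chow-fed mice, but at 194, 159 and 66.4 CPM in salmon-fed mice 22, 23 and 27, and at 12.7, 13.5 and 8.31 CPM in mice 25, 26 and 31 of the same labelled group. Under fishmeal it was at 53.1, 37.7 and 52.2 CPM in mice 12, 14 and 16 and at 11.5 and 17.7 CPM in mice 13 and 20, and under beef at 9.47 to 19 CPM. The difference between HFD and chow was 2.26 on the log2 scale (adjusted p = 0.0539 by edgeR). Near-identical copies were sought for the 9 genes only and not for Gapdh. Whether its low and uneven counts reflect how its reads were assigned, rather than its expression, was not tested.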
